A study of Mus musculus with 8 samples.

Results

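The 45 Nduf genes, named after NADH:ubiquinone oxidoreductase, include nuclear genes of respiratory complex I. They were taken as every row whose symbol begins with Nduf, out of 23282 rows in each count table, and all 45 were among the 13174 rows that passed the filter on low counts (edgeR's filterByExpr). Of these, 36 encode subunits of the enzyme and 7 (Ndufaf1 to Ndufaf7) encode assembly factors. The other 2, Ndufa4 and Ndufa4l2, carry the name but are placed outside complex I. The 36 need not be every nuclear subunit: of 21 symbols looked for as accessory subunits of the membrane arm, 19 were among the rows.

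The tissue was the gastrocnemius (a muscle of the calf) from C57BL/6 mice listed as 4 weeks old when the tumour cells were injected, and the kit sequences 3' ends of mRNA. The 2 libraries titled RP came from mice bearing a Lewis lung carcinoma under the skin and dosed by mouth with a 30% ethanol extract of the peony Paeonia lactiflora (100 mg/kg each day for 2 weeks). Tumour-bearing mice given water gave the 3 libraries titled Control, and tumour-free mice injected with saline and given water gave the 3 titled Normal. The study addressed the muscle wasting of cancer cachexia and how the extract acts on it. Nothing in the labels ties a library to an animal of its own, and p-values therefore cover the spread among these libraries, which may be technical.

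In the 6 tables of Normal and Control samples, file name and column header both give the opposite group to the sample title. Groups here are those of the titles, and Normal 1 means the library with that title. Which libraries are called tumour-bearing or tumour-free follows the titles as well. Should the table names be right instead, every direction given for Control against Normal turns round, RP against Control becomes RP against Normal, and the reverse.

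Complex I is the entry point for electrons from NADH into the respiratory chain. Its peripheral arm, in the mitochondrial matrix, oxidizes NADH and passes the electrons along iron-sulphur clusters to ubiquinone, and its membrane arm pumps protons. The catalytic core of the peripheral arm is encoded in the nucleus and that of the membrane arm in mitochondrial DNA, and a shell of accessory subunits surrounds both. Of 14 symbols looked for as genes in mitochondrial DNA, 0 were in the count tables, so the subunits encoded there are not analysed here. Assembly factors modify, insert or hold subunits while the enzyme is built and are not part of the finished complex. Muscle fibres are rich in mitochondria in proportion to their oxidative use.

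Promoters are shown for 5 of the 6 Nduf genes that differed between Control and Normal, from 250 bases before to 50 after the start site (RefSeq, build GRCm38.p6, 5′ to 3′ on the gene's strand). They were chosen because these genes passed the test in that comparison. Capitals mark matches to the letters searched on both strands: GCGCNTGCG for the nuclear respiratory factor NRF1, CCGGAAG for ETS factors such as GABP, TCAAGGTCA for oestrogen-related receptors, AAGATGGCG for YY1 and CCAAT for NF-Y. The Ndufaf5 window is chr2:140170396-140170695, plus strand. That of Ndufaf7 is chr17:78936885-78937184, plus strand, that of Ndufc2 is chr7:97399753-97400052, plus strand, that of Ndufc1 is chr3:51408906-51409205, minus strand and that of Ndufb2 is chr6:39592315-39592614, plus strand.
Ndufaf5: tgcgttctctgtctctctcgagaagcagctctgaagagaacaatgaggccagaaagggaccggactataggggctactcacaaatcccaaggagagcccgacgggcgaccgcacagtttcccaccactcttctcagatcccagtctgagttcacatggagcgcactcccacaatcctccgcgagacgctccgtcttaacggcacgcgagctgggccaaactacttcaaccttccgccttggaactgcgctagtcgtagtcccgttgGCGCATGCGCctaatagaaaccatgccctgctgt
Ndufaf7: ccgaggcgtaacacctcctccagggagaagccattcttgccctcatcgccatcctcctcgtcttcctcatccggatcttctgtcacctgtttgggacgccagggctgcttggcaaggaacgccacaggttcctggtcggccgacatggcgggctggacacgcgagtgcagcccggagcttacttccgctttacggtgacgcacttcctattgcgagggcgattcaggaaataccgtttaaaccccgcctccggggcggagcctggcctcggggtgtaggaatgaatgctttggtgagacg
Ndufc2: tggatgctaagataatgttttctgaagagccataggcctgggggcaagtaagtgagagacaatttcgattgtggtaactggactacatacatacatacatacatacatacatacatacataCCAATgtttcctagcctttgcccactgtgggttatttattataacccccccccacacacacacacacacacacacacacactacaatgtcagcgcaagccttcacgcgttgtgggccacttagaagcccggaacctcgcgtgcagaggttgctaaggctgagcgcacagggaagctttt
Ndufc1: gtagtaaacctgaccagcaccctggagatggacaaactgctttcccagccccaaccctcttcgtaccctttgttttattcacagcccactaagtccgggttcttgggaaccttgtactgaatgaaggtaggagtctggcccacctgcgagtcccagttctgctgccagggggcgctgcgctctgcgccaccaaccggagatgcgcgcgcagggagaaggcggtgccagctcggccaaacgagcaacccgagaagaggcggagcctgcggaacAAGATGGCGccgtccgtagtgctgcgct
Ndufb2: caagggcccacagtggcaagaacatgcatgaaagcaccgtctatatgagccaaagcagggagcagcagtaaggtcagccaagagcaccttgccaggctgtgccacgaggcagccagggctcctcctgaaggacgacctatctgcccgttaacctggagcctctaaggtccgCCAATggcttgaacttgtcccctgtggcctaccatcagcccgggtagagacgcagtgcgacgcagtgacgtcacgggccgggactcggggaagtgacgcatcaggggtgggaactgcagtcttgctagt

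Ndufaf5 held the NRF1 letters on both strands, in matches that overlap and begin at bases 17 and 18 after the start site. Ndufc1 held the YY1 letters at base 23 after the start, Ndufc2 held CCAAT at -129 and Ndufb2 held it at -79, while none of the 5 strings was found in the Ndufaf7 window. Of the 45 genes, 39 had a promoter in the table, and 11 of them (28.2%) held the NRF1 letters, against 7.12% of 27025 gene promoters of the same length. The YY1 letters stood in 5 of the 39 (12.8%), against 1.64% of all. ETS letters stood in 5 (12.8%) against 9.93%, CCAAT in 13 (33.3%) against 41.1%, and the oestrogen-related receptor letters in 0 against 0.466%. A match is a description of these letters and not of binding.

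Each library held between 9528011 and 12333767 counts, and every Nduf gene had at least 78 counts in each library. All 15 skeletal muscle markers looked for were present, with a summed level of 186648 and 179869 CPM (counts scaled to library size) in the RP libraries, 149067 to 176448 in Control and 112757 to 158060 in Normal. Library sizes were adjusted by the trimmed mean of M-values (TMM), and a 3' tag count is made once per transcript end, so that it is not divided by transcript length. In bulk muscle, fewer fibres and less RNA per fibre cannot be told apart. Red cell RNA differed between the groups. The haemoglobin genes held 0.862% and 3.83% of the counts in RP 1 and 2 and 1.41% to 1.61% in Control, against 4.57%, 9.56% and 19.7% in Normal 1, 2 and 3.

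The most abundant Nduf messages were those of accessory subunits. Averaged over the 8 libraries, the membrane arm subunits Ndufb8 and Ndufb9 stood at 1005 and 1004 CPM and the peripheral arm subunits Ndufa5, Ndufa6 and Ndufa2 at 1001, 952 and 907 CPM. Core subunits lay between 482 CPM for Ndufv2 and 156 CPM for Ndufs3. Assembly factors were far less abundant, from 107 CPM for Ndufaf5 and 72.6 CPM for Ndufaf4 to 13.4 CPM for Ndufaf2 and 13.3 CPM for Ndufaf7. The only subunit at such a level was Ndufab1, the mitochondrial acyl carrier protein of both arms, at 29.7 CPM, and the lowest of all was Ndufa4l2 at 11.8 CPM.

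**Figure D1:**
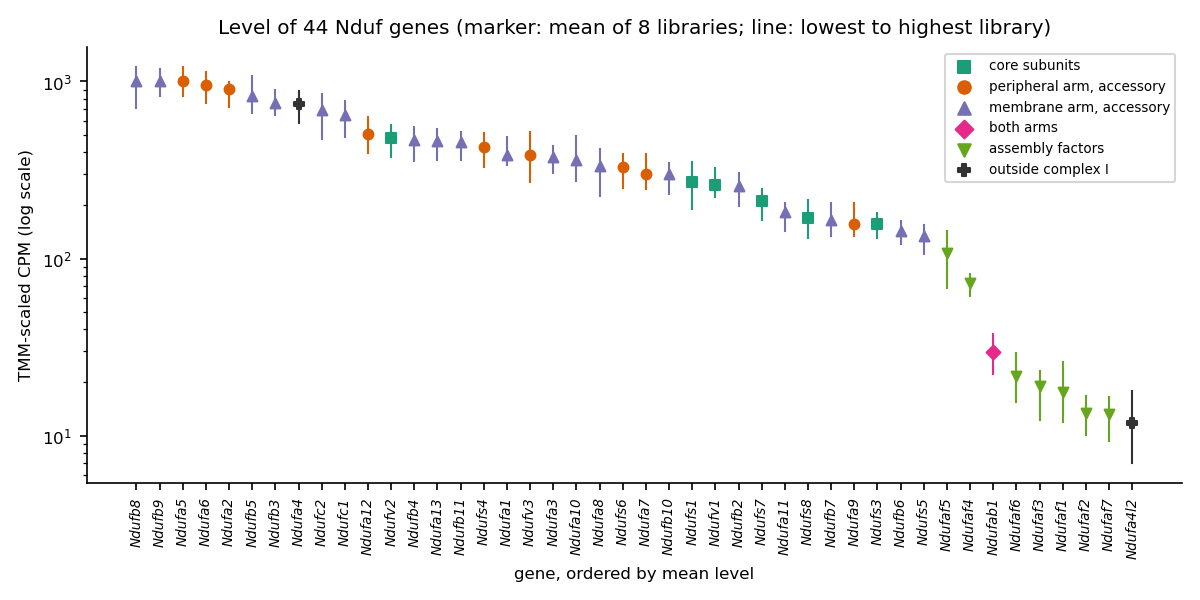
Level of each of 44 Nduf genes in TMM-scaled CPM on a log axis, ordered by mean; markers give the mean of 8 libraries and lines the lowest and highest library. Accessory subunits led by Ndufb8 (1005 CPM) are at the left, and all 7 assembly factors are among the lowest 9 genes at the right.

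As a group, Nduf transcripts took more of the RNA in the libraries titled RP and Control than in those titled Normal. The 45 genes held 1.90% and 1.89% of the counts in RP 1 and 2 and 1.88%, 1.81% and 1.87% in Control 1 to 3, against 1.44%, 1.44% and 1.34% in Normal 1 to 3. All 5 libraries titled RP or Control lay above all 3 titled Normal. The 95% Wilson interval of each share was narrow, for example 1.887% to 1.905% in RP 1. These intervals cover counting error only. With haemoglobin counts left out of the totals, the share was 1.91% and 1.96% in RP and 1.91%, 1.84% and 1.90% in Control, against 1.51%, 1.59% and 1.66% in Normal 1 to 3. The gap to Normal was then smaller, and Normal 3 was the highest of its group and not the lowest.

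The summed share of the 15 muscle fibre markers was also lower in all 3 Normal libraries: 18.2% and 17.3% in RP, 17.4%, 17.7% and 16.5% in Control, and 11.9%, 12.7% and 13.2% in Normal. On the TMM scale their sum in Normal 3 exceeded that of Control 3. Marker by marker there was no common direction in Control against Normal: 7 of the 15 had a log2 change above 0, with a median of -0.0461, against a median of 0.31 over the Nduf genes. The markers past the threshold there (adjusted p under 0.05, edgeR) were the calcium buffer Pvalb, the myosin light chain Mylpf and the oxygen store Mb, all higher in Control, with log2 changes of 1.12, 0.63 and 0.54 (adjusted p = 0.00067, 0.0321 and 0.0466).

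Divided by the summed muscle marker counts, the Nduf counts of the 3 groups overlapped. There were 10.4 and 10.9 Nduf counts per 100 muscle marker counts in RP, 10.8, 10.2 and 11.3 in Control, and 12.1, 11.3 and 10.1 in Normal. This ratio rests on a few abundant markers, with Tnnc2, Acta1, Tnni2 and Pvalb at 16.5%, 16.4%, 11.0% and 10.1% of the marker counts on average, and it does not follow the median marker. Assembly factors against subunits showed a difference in 2 of the Normal libraries: 16.9 and 16.9 assembly factor counts per 1000 subunit counts in RP and 17.2, 17.8 and 17.5 in Control, against 16.8, 14.7 and 14.9 in Normal 1 to 3. Ndufaf5 and Ndufaf4 make up most of the assembly factor counts.

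**Figure D2:**
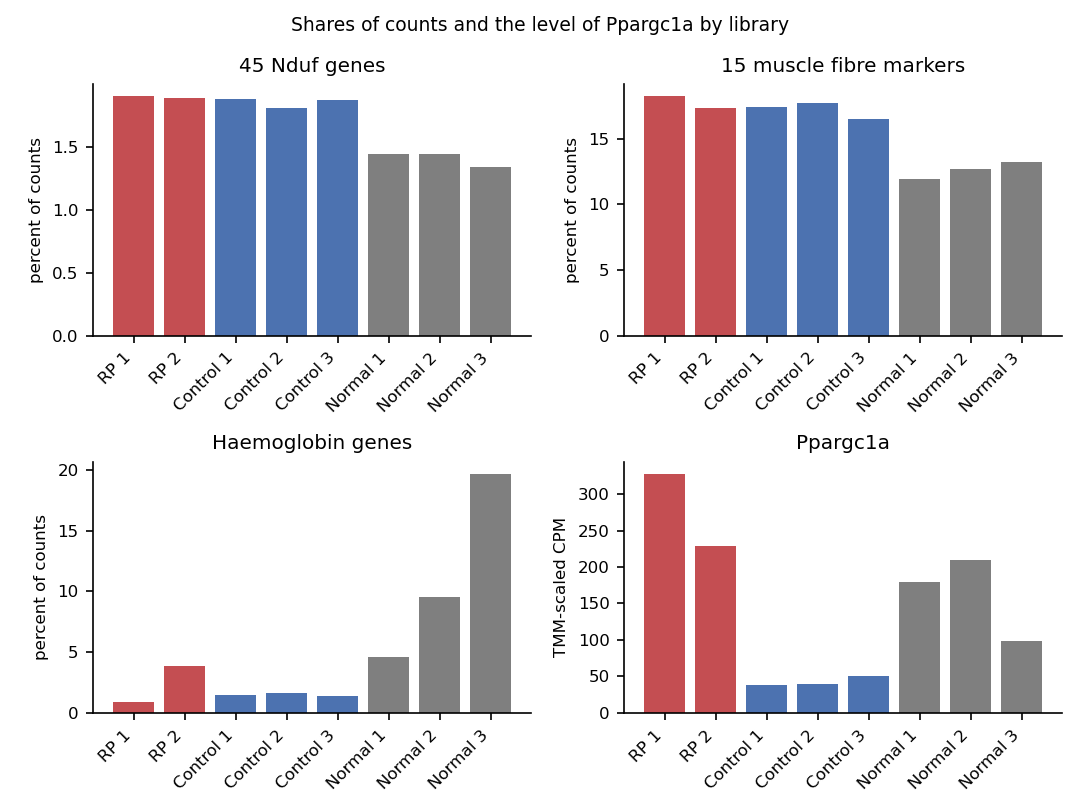
Percent of counts held by the 45 Nduf genes, by 15 muscle fibre markers and by the haemoglobin genes, and the TMM-scaled CPM of Ppargc1a, in each of the 8 libraries. Nduf and muscle marker shares are lower in the 3 Normal libraries, haemoglobin reaches 19.7% in Normal 3, and Ppargc1a is at or below 50.4 CPM in the Control libraries only.

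Across libraries on the TMM scale, 44 of the 45 genes had their lowest value in a Normal library, as did 46.2% of all genes. The highest value lay in an RP library for 37, in a Control library for 5 and in a Normal library for 3, against 20.8%, 31.5% and 47.6% of all genes. The order of group means was RP, then Control, then Normal for 37 genes, against 15.9% of all. With counts scaled by library size alone, the lowest value still lay in a Normal library for 44, but the highest lay in an RP library for 20 and in a Control library for 23 (13.3% and 44.8% of all genes), and 24 genes had that order of means (12.3% of all).

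**Figure D3:**
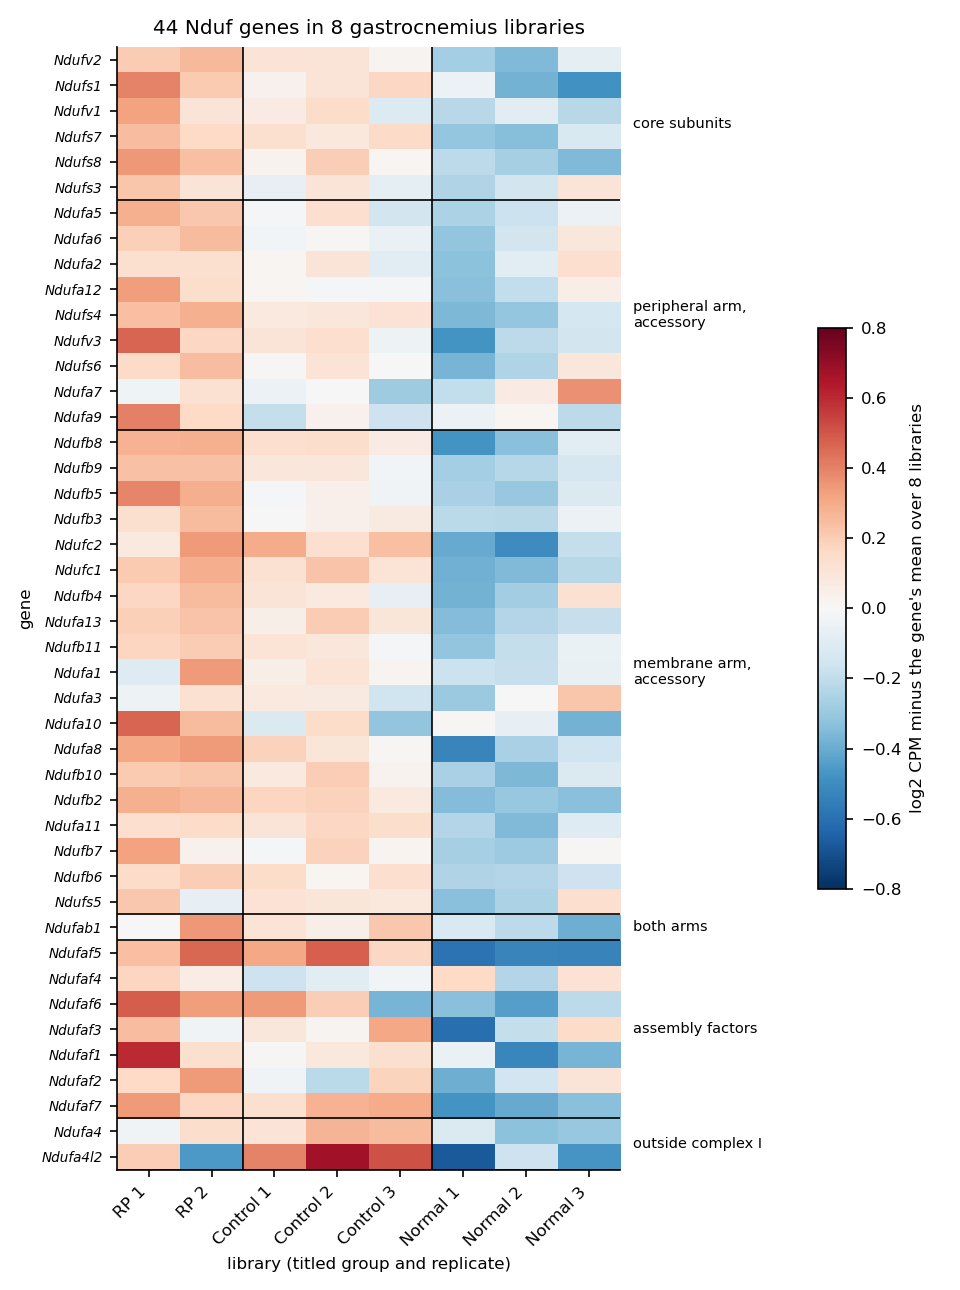
Log2 CPM of each of 44 Nduf genes minus its own mean over the 8 libraries, with genes grouped by role and libraries by titled group. RP columns are mostly above and Normal columns mostly below the gene's mean, and Normal 3 is nearer to Control than Normal 1 and 2 are for many subunits.

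In the comparison of tumour-bearing Control with tumour-free Normal muscle, Nduf transcripts that differed were higher in Control. Ndufaf5, Ndufaf7, Ndufc2, Ndufc1, Ndufb2 and Ndufa4l2 passed the threshold, an adjusted p under 0.05 in edgeR's quasi-likelihood test over all 13174 genes, and 0 were lower. That is 6 of 45, where 10.4% of all genes tested passed in either direction (4.99% higher and 5.45% lower). By role, 2 of 7 assembly factors, 3 of 36 subunits and 1 of the 2 genes outside the complex were higher. The log2 change was above 0 for 42 of the 45 genes, against 50.1% of all genes, and its median was 0.31, against 0.000427 over all genes.

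Ndufaf5, whose human protein hydroxylates an arginine of the core subunit NDUFS7, had the smallest p of the 45. It lies at chr2:140170649-140203689 on the plus strand (GRCm38, GENCODE M21). It stood at 127, 143 and 115 CPM in Control 1 to 3, against 68.1, 71.1 and 70.8 CPM in Normal 1 to 3. The lowest Control library was thus well above the highest Normal one, and the log2 change was 0.87 ± 0.14 (SE; adjusted p = 0.00186).

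Ndufaf7, an assembly factor with methyltransferase activity, lies at chr17:78937136-78948052 on the plus strand. Its levels were 14.2, 15.8 and 16.0 CPM in Control, against 9.36, 9.86 and 10.3 CPM in Normal. The groups did not overlap, and the log2 change was 0.64 ± 0.17 (SE; adjusted p = 0.0313).

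The 3 subunits that were higher belong to the membrane arm. Ndufc2 (chr7:97400003-97407802, plus strand) stood at 828, 741 and 798 CPM in Control, against 510, 476 and 591 CPM in Normal. Its log2 change was 0.59 ± 0.15 (SE; adjusted p = 0.0226). Its neighbour in the complex, Ndufc1 (chr3:51404677-51408988, minus strand), stood at 691, 745 and 684 CPM in Control, against 487, 497 and 545 CPM in Normal. Its log2 change was 0.47 ± 0.13 (SE; adjusted p = 0.0395). Ndufb2 (chr6:39592574-39603382, plus strand) stood at 284, 286 and 266 CPM in Control, against 198, 204 and 200 CPM in Normal (log2 change 0.47 ± 0.13 SE, adjusted p = 0.0321). In none of these 3 genes did the groups overlap. The exons of Ndufb2 overlap those of 3 other annotated genes, and the strand counted is not given in the sources used here.

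Ndufa4l2, a paralogue of Ndufa4 that is induced under hypoxia, had the largest log2 change of the 45. It lies at chr10:127514967-127517154 on the plus strand and overlaps 1 other gene on the opposite strand. It stood at 14.7, 17.8 and 15.9 CPM in Control, against 7.02, 9.96 and 8.06 CPM in Normal (log2 change 0.95 ± 0.22 SE, adjusted p = 0.0148). Ndufa4 itself, now placed in cytochrome c oxidase, was just outside the threshold. It stood at 792, 887 and 875 CPM in Control, against 680, 586 and 596 CPM in Normal (log2 change 0.46 ± 0.14 SE, adjusted p = 0.0538).

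**Figure D4:**
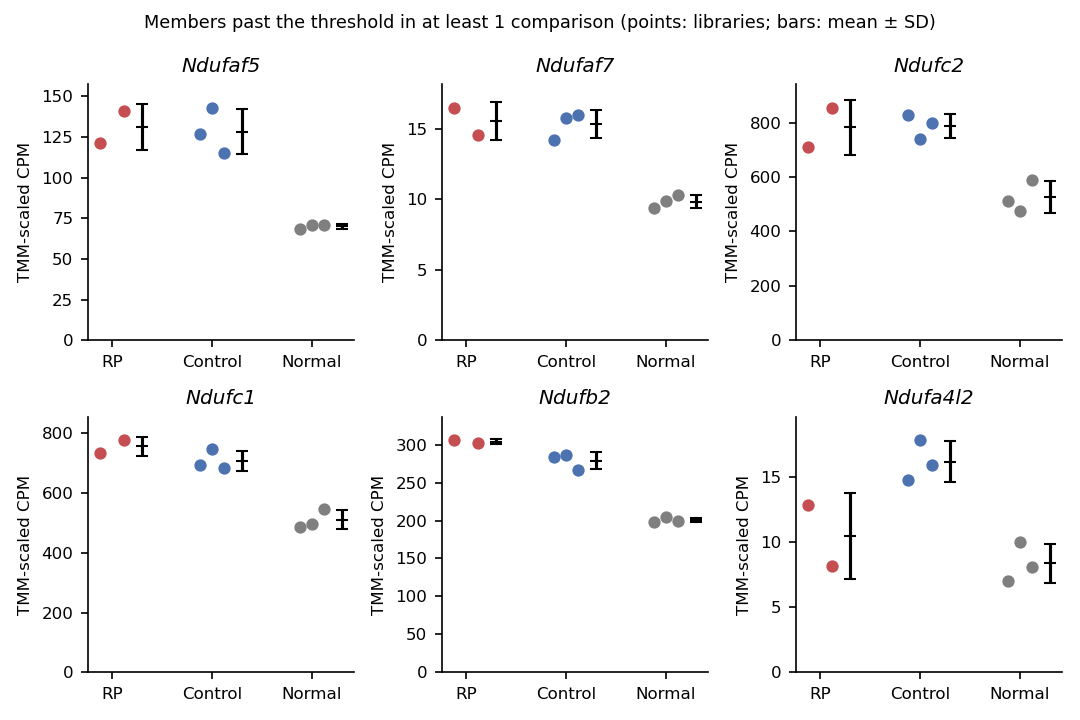
TMM-scaled CPM of the 6 Nduf genes past the threshold in at least 1 comparison, with a point for each library and the mean ± SD of each group (RP n = 2, Control n = 3, Normal n = 3). All Control points lie above all Normal points in each panel, and RP points lie near or above Control in 5 panels, while the Ndufa4l2 values of RP (12.8 and 8.12 CPM) are below those of Control.

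None of the 7 core subunits passed in Control against Normal. The iron-sulphur protein Ndufs1, which takes electrons on from the NADH site, stood at 271, 284 and 297 CPM in Control, against 256, 204 and 190 CPM in Normal (log2 change 0.39 ± 0.15 SE, adjusted p = 0.119). Ndufs7 and Ndufs8, which carry the last clusters before ubiquinone, had log2 changes of 0.38 and 0.36 with adjusted p of 0.0903 and 0.107. Ndufv2 had 0.31 and Ndufv1, which binds NADH, had 0.22 (adjusted p = 0.169 and 0.357). Ndufs3, a core subunit of the ubiquinone site region, had 0.078 (adjusted p = 0.779). The core subunits' median log2 change was 0.31, that of the 9 peripheral accessory subunits 0.15 and that of the 19 membrane accessory subunits 0.26.

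Among the other assembly factors, Ndufaf1 and Ndufaf6 averaged 18.1 ± 0.765 and 22.4 ± 5.45 CPM in Control, against 13.9 ± 2.36 and 16.8 ± 1.37 CPM in Normal (SD, n = 3 each). Their log2 changes were 0.37 and 0.41 (adjusted p = 0.224 and 0.191). Ndufaf3 and the late-acting factor Ndufaf2 had log2 changes of 0.33 and 0.13, and Ndufaf4, a partner of Ndufaf3 in early assembly of the peripheral arm, had -0.11 (adjusted p = 0.319, 0.733 and 0.664). The median over the 7 assembly factors was 0.37 and that over the 36 subunits was 0.24, a difference that was not tested.

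All Control libraries lay above all Normal libraries for 26 of the 45 genes and below them for 0, where 16.6% and 14.7% of all genes did so. Normal 3 gave most of the overlap. It was above Normal 1 and 2 for 33 genes and reached at least the lowest Control library for 16. Its median log2 difference from the mean of Normal 1 and 2 was 0.19 over the Nduf genes, against -0.0162 over all genes. Ndufa7, a peripheral accessory subunit singled out after its values were seen, stood at 290, 300 and 246 CPM in Control against 262, 314 and 387 CPM in Normal, so that Normal 3 was the highest of these libraries.

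The number of calls differed with the library left out. Of the 6, Ndufaf5 alone passed in all 17 other settings tried, with an adjusted p of at most 0.029. The number of Nduf genes called was 2 without Control 1, 1 without Control 2, 1 without Control 3 and 2 without Normal 2. It was 8 without Normal 1 and 8 without Normal 3. Calls over all genes moved too, from 141 to 872 higher and 241 to 986 lower across the settings. The share of all genes called in each of these fits is not given here. Red cell and neutrophil messages moved with the same groups: all 10 red cell markers tested were lower in Control, with a summed level of 12767 to 16166 CPM in Control and 43376 to 236699 CPM in Normal. All 8 neutrophil markers tested were lower too, and the 10 listed summed to 11.7 to 21.2 CPM in Control and 947 to 1960 CPM in Normal. Of 9 fibroblast and tendon cell markers 5 were higher in Control, where they summed to 7794 to 8632 CPM, against 5271 to 7974 CPM in Normal. With log2 CPM of Hba-a1 as a covariate, the subunits' median was 0.41 and 2 Nduf genes passed (Ndufaf5 and Ndufc2). Haemoglobin shares did not overlap between Control (1.41% to 1.61%) and Normal (4.57% to 19.7%), so this fit cannot tell red cell RNA from group. The part of neutrophil and fibroblast RNA in the result was not tested.

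**Figure D5:**
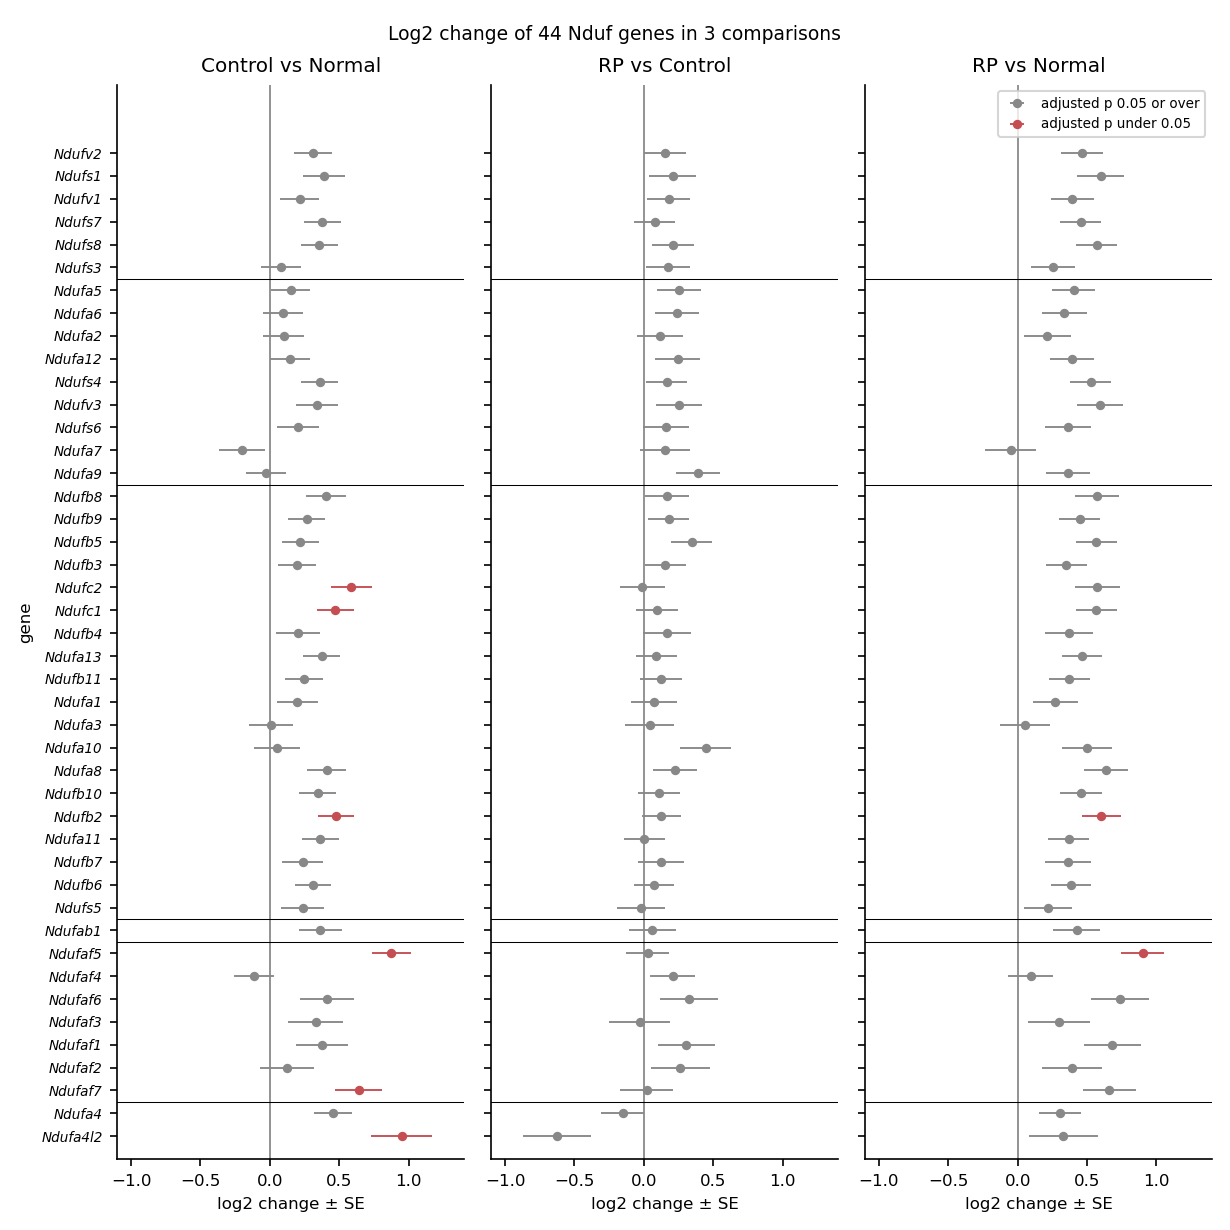
Log2 change ± SE of each of 44 Nduf genes in the 3 comparisons, with genes past an adjusted p of 0.05 in red. Points lie mostly right of 0 in every panel, 6 are red for Control against Normal, 0 for RP against Control and 2 for RP against Normal.

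In the comparison of extract-treated with water-treated tumour-bearing muscle, no Nduf gene passed the threshold. Of the 45 genes, 0 passed in either direction with edgeR, and 0 with DESeq2, limma-voom or any other setting tried. With edgeR 0.175% of all genes passed (0.144% higher and 0.0304% lower), with DESeq2 0.85% and with limma-voom 0.0759%, and 4 Nduf genes had an unadjusted p under 0.05, against 8.98% of all genes. Those 4, chosen after their values were seen, were the accessory subunits Ndufa10, Ndufa9 and Ndufb5, with log2 changes of 0.45, 0.39 and 0.35, and Ndufa4l2 with -0.62 (adjusted p = 0.498, 0.499, 0.525 and 0.476).

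The direction of the small differences was shared by most members on the TMM scale. The log2 change was above 0 for 40 of 45 genes, against 49.5% of all genes, with a median of 0.16, against -0.00382. Both RP libraries lay above all Control libraries for 26 genes and below them for 1, where 15.3% and 16.4% of all genes did so. How many genes lay higher depended on the scaling. When counts were scaled by library size alone, 25 of 45 genes had the higher mean in RP, and the all-gene share is not given here. Of the 45, 5 lay wholly above Control and 4 wholly below it, against 7.07% and 26.1% of all genes. The subunits' median was then 0.029, and the median of all genes moved down as well, to -0.134. The 15 muscle markers had log2 changes above 0 as well, all 15 of them, with a median of 0.20 on the TMM scale. All 8 neutrophil markers tested had log2 changes above 0 (median 4.31), and 2 of them, S100a8 and S100a9, passed the threshold. All 10 red cell markers were above 0 too (median 0.996), and 0 passed. The listed neutrophil markers summed to 35.9 and 495 CPM in RP 1 and 2, against 11.7 to 21.2 CPM in Control. Most of the RP level thus came from RP 2. The part of these cells in the result was not tested.

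All 7 core subunits had log2 changes above 0. Ndufs8 stood at 213 and 198 CPM in RP, against 171, 192 and 170 CPM in Control (log2 change 0.21, 95% interval -0.11 to 0.53, adjusted p = 0.727). Both RP values were above all Control values for 6 of the 7 core subunits, and the smallest of their log2 changes was 0.078, that of Ndufs7. The 9 peripheral accessory subunits had a median of 0.24, the 19 membrane accessory subunits 0.12 and the 7 assembly factors 0.21.

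Of the 6 genes that passed in Control against Normal, 5 had a 95% interval that included 0 here. The 6 were picked for being higher in the same Control libraries that serve as reference here, so this is not an independent look at them. Ndufaf5 stood at 121 and 141 CPM in RP, against 127, 143 and 115 CPM in Control (log2 change 0.027, 95% interval -0.31 to 0.36). Ndufc2 stood at 711 and 855 CPM in RP, within reach of the Control values of 828, 741 and 798 CPM (log2 change -0.012, interval -0.36 to 0.34). Ndufaf7 had 16.5 and 14.6 CPM in RP against 14.2, 15.8 and 16.0 CPM in Control. The largest difference downward was that of Ndufa4l2, with 12.8 and 8.12 CPM in RP against 14.7, 17.8 and 15.9 CPM in Control (interval -1.16 to -0.092). For 33 of the 45 genes, the 95% interval lay within a 1.5-fold change either way.

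Compared with tumour-free Normal muscle, the extract-treated muscle had higher Ndufaf5 and Ndufb2. These 2 of 45 genes passed, and 0 were lower, where 2.5% of all genes passed in either direction (1.67% higher and 0.835% lower). This comparison shares its Normal libraries with that of Control and Normal and its RP libraries with that of RP and Control, so that it is not an independent repeat of either. Ndufaf5 stood at 121 and 141 CPM in RP, against 68.1, 71.1 and 70.8 CPM in Normal (log2 change 0.90 ± 0.15 SE, adjusted p = 0.00806). Ndufb2 stood at 306 and 302 CPM in RP, against 198, 204 and 200 CPM in Normal (log2 change 0.60 ± 0.14 SE, adjusted p = 0.0426).

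Ndufaf5 was called in 15 of 16 other settings and Ndufb2 in 9 of 16. The number of Nduf genes called ranged with single libraries, from 0 without RP 2 (Ndufaf5 then had an adjusted p of 0.0671) and 1 without RP 1 or Normal 2 to 8 without Normal 1 and 10 without Normal 3. With DESeq2, 15 were called, where 5.13% of all genes were. Calls over all genes moved with the settings too, as given further below. The share of all genes called in each fit without a library is not given here, so the Nduf counts of those fits cannot be set against it. Of the Normal libraries, Normal 3 had the most haemoglobin RNA and Normal 1 the least (19.7% and 4.57% of counts). With haemoglobin genes and Rn45s removed, 2 Nduf genes were called. The log2 change was above 0 for 44 of 45 genes, against 46.2% of all genes, with Ndufa7 the exception at -0.051. For 35 genes both RP libraries lay above all Normal libraries, where 15.4% of all genes did so. Markers of other cells moved in this comparison too. All 10 red cell markers and all 8 neutrophil markers tested had log2 changes below 0, with medians of -2.59 and -2.40, and 2 of each list passed. Of the 9 fibroblast and tendon cell markers, 4 were higher in RP and 0 lower, with a median of 1.02. Of the 15 muscle markers, 13 were above 0 with a median of 0.24, and 1 passed (Pvalb, higher in RP). The part of these cells in the result was not tested.

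Close to the threshold without passing it were several subunits and assembly factors. Ndufs1 stood at 349 and 306 CPM in RP, against 256, 204 and 190 CPM in Normal (log2 change 0.60 ± 0.17 SE, adjusted p = 0.0808), and Ndufs8 had 0.57 ± 0.15 (adjusted p = 0.0636). Ndufaf6 stood at 29.5 and 26.6 CPM in RP, against 16.7, 15.5 and 18.2 CPM in Normal (log2 change 0.74 ± 0.21 SE, adjusted p = 0.0853). Ndufaf1, a member of the complex that builds the membrane arm, had 26.0 and 18.8 CPM in RP, against 16.6, 12 and 13.3 CPM in Normal (0.68 ± 0.21, adjusted p = 0.101). Ndufaf7 and Ndufc2 had log2 changes of 0.66 and 0.57 (adjusted p = 0.0876 and 0.0835). The median was 0.66 over the assembly factors and 0.40 over the subunits.

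Counts of 26 of the 45 genes may include reads of another gene. The exons of 19 overlap another annotated gene, and the last 300 transcript bases of 12 match another transcript, in most cases a processed pseudogene, over at least 60 bases at 90% identity. Only Ndufb2, Ndufb8 and Ndufb9 overlap a gene on their own strand, and the other overlaps are with genes on the opposite strand. Whether those add reads cannot be told, since the strand counted is not given. Of the 19 genes with neither, 13 are subunits and 5 are assembly factors. Over those 13 subunits the median log2 change was 0.34 in Control against Normal and 0.50 in RP against Normal. Ndufaf5, Ndufaf7, Ndufc1 and Ndufc2 are among the 19.

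Transcript length, that of each gene's longest annotated coding transcript, was set beside the changes across the 45 genes. Spearman's rho between annotated transcript length and log2 change was 0.267 in Control against Normal, 0.252 in RP against Control and 0.493 in RP against Normal. Over 12202 genes it was -0.105, 0.00487 and -0.1. For the difference of Normal 3 from Normal 1 and 2, rho was -0.389 over the Nduf genes and -0.182 over all. These are descriptions across genes of the same libraries, and genes are not independent replicates.

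The subunits of the other respiratory complexes had medians near those of the complex I subunits. Of 44 genes of complexes II to V, 5 were higher and 0 lower in Control than in Normal (Sdhd, Cyc1, Cox7a1, Atp5g3 and Atp5j), with a median log2 change of 0.27. In RP against Control 0 passed with edgeR or limma-voom and 1 with DESeq2 (Sdhd, lower in RP), with 5 at an unadjusted p under 0.05 (median 0.14), and in RP against Normal 3 were higher and 0 lower (Cyc1, Cox7a1 and Atp5j, median 0.41). All-gene shares were 10.4%, 0.175% and 2.5% in the order of these comparisons. DESeq2 called 15 of the 44 in RP against Normal, where it called 5.13% of all genes, and 7 in Control against Normal (12.8% of all). Cox7a1, the muscle form of a cytochrome c oxidase subunit, stood at 710 and 816 CPM in RP and 801, 732 and 694 CPM in Control, against 421, 411 and 364 CPM in Normal (Control against Normal 0.90, adjusted p = 0.00162). Of 12 further complex I assembly genes without the Nduf name that were tested, such as Acad9 and Timmdc1, 0 passed in any comparison with edgeR, DESeq2 or limma-voom. At an unadjusted p under 0.05 there were 1 in Control against Normal, 0 in RP against Control and 1 in RP against Normal. Of all genes, 26.3%, 8.98% and 17.1% had such a p in these comparisons.

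Regulators of mitochondrial genes were measured in the same libraries. Ppargc1a, the coactivator that drives mitochondrial biogenesis with NRF1 and the oestrogen-related receptors, stood at 328 and 229 CPM in RP and 38.5, 40.2 and 50.4 CPM in Control, against 180, 209 and 98.7 CPM in Normal. It was lower in Control than in Normal (log2 change -1.92 ± 0.25 SE, adjusted p = 0.000451) and higher in RP than in Control (2.69 ± 0.27, adjusted p = 0.000774). Its change in RP against Normal was 0.77 (adjusted p = 0.147). Control libraries thus had the lowest Ppargc1a and, together with RP, the higher Nduf share.

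Nrf1, the nuclear respiratory factor, was also lower in Control, at 10.8, 11.2 and 10.5 CPM against 17.9, 17.1 and 17.5 CPM in Normal (log2 change -0.69 ± 0.17 SE, adjusted p = 0.0179). This call was lost in 5 of the other settings. Esrra, Gabpa and Tfam, which encode an oestrogen-related receptor, a subunit of GABP and the mitochondrial transcription factor, did not pass in any comparison. Of the 18 regulators listed, 0 were higher and 4 lower in Control than in Normal, against 4.99% and 5.45% of all genes. These were Ppargc1a, Nrf1, Pprc1 and the hypoxia factor Hif1a, the last 2 with log2 changes of -1.09 and -0.76. In RP against Control 1 was higher, Ppargc1a, against 0.144% of all genes. In RP against Normal 1 was higher, against 1.67% of all genes. It was Perm1, a muscle regulator of oxidative genes (0.90, adjusted p = 0.016, edgeR).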

How the data were processed

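Per the labels' protocols, libraries were made from 500 ng of total RNA with the Lexogen QuantSeq kit. The deposited files hold raw counts per gene symbol, 1 file per library, as the authors counted them. Bowtie2, edgeR and mm10 are named, without roles, in the submitters' processing notes, and the counting tool and strand are not given in the sources used here. Libraries were grouped by title. The test was that of edgeR 4.0.16 in R 4.3.3 (glmQLFit and 2-sided glmQLFTest, TMM, filterByExpr). All 8 libraries entered 1 fit, whose biological coefficient of variation was 0.195, and p-values were adjusted by Benjamini-Hochberg over the 13174 genes of each comparison. The 35 symbols listed more than once kept separate rows. Positions and overlaps came from GENCODE M21 (GRCm38), and promoters from RefSeq. Figures were drawn with matplotlib 3.10.9.

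The members and lists were chosen with earlier results of these data known. Genes given with values were those past the threshold in any comparison, the 7 core subunits, the assembly factors, Ndufa4, Ndufa4l2 and the 5 highest and 5 lowest members by mean CPM, plus up to 3 genes of each list outside the members with the smallest p and 5 fixed regulators. The values of 1 core subunit are not reported here, and the figures leave it out, but it stays in every count and median. Other settings were DESeq2 1.42.0, limma-voom (limma 3.58.1), RLE or upper-quartile normalization, a minimum mean CPM of 5 or no minimum, a replicate block, an Hba-a1 covariate, removal of haemoglobin genes and Rn45s, only the 2 groups compared, a 1.5-fold minimum and leaving out each library. Scaling by library size alone and a restriction to members sharing no sequence were added after seeing the data. Without 1 RP library, the lone RP library was taken to vary as Control and Normal do. The test was also run on simulated counts in which set genes differed by known folds.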

Additional observations from a re-analysis of the deposited data

How the results depend on the processing

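No called value changed sign under any setting tried. In Control against Normal (6 Nduf genes higher) the count was 16 with library size alone, 2 with the Hba-a1 covariate and 3 with the replicate block, and 1 to 8 when each library was left out. The subunits' median (0.24) was 0.39 with library size alone, 0.41 with the covariate, 0.34 over members sharing no sequence and 0.20 to 0.31 with each library left out. That of the assembly factors (0.37) was 0.50 with library size alone, 0.50 with the covariate and 0.33 to 0.47 with each library left out. With library size alone the median of all genes itself moved to 0.137 in this comparison. In RP against Control, the count stayed at 0, the subunits' median (0.16) was 0.029 and that of the assembly factors (0.21) 0.078 with library size alone, and they were 0.12 to 0.19 and 0.14 to 0.18 with each library left out. In RP against Normal (2 higher) the count was 15 with DESeq2, 6 with no filter, 5 with limma-voom, 5 with library size alone, 1 with the covariate, 1 with only the 2 groups compared, 1 with the replicate block and 0 to 10 with each library left out. The subunits' median (0.40) was 0.52 with the covariate, 0.50 over members sharing no sequence and 0.37 to 0.49 with each library left out, and that of the assembly factors (0.66) was 0.48 to 0.75. The cause of these shifts was not tested. Of all genes, limma-voom called 10.3% in Control against Normal and 2.54% in RP against Normal, and DESeq2 called 12.8% and 5.13%. For the remaining settings the share of all genes called is not given here, so those counts cannot be read as particular to the Nduf genes.

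Same-numbered libraries had correlations of deviations from their group means between -0.0682 and 0.0795. Differently numbered libraries were not set beside them, so these values cannot decide whether the numbers mark a shared litter or day. Over all genes, calls ranged from 141 to 872 higher and 241 to 986 lower in Control against Normal (658 and 718), 6 to 109 and 0 to 95 in RP against Control (19 and 4), and 49 to 422 and 8 to 320 in RP against Normal (220 and 110). For the named genes, 1348 values kept their side of the threshold, 34 gained a call and 39 lost it. Members with few counts, such as Ndufa4l2, have wide intervals.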

Other observations

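Ndufaf8, an assembly factor, is not listed under that symbol. Its synonym in RefSeq, 1810043H04Rik, stood at 96.2 and 109 CPM in RP and 131, 110 and 110 CPM in Control, against 77.4, 119 and 131 CPM in Normal. The groups overlapped, with log2 changes of 0.10 in Control against Normal, -0.19 in RP against Control and -0.086 in RP against Normal (adjusted p = 0.775, 0.844 and 0.888).

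Sdhd, a membrane anchor of succinate dehydrogenase in complex II, was higher in Control than in Normal. It stood at 47.0 and 114 CPM in RP and 177, 136 and 193 CPM in Control, against 110, 72.2 and 75.6 CPM in Normal. Its log2 change was 0.97 (adjusted p = 0.0379) in Control against Normal and -1.07 (adjusted p = 0.278, and 0.0428 with DESeq2) in RP against Control. The other 3 subunits of complex II did not pass in any comparison with edgeR.

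Some tendon and matrix messages were higher in Control than in Normal. The tenocyte gene Kera stood at 37.9 and 30.5 CPM in RP and 51.7, 47.6 and 51.9 CPM in Control, against 7.65, 6.13 and 2.23 CPM in Normal. Its log2 change was 3.23 in Control against Normal (adjusted p = 3.92e-05), and 5 of 9 fibroblast and tenocyte genes were higher there with 0 lower. The summed level of the 9 did not separate the groups, at 7162 and 7308 CPM in RP and 7794 to 8632 CPM in Control, against 5271 to 7974 CPM in Normal. In RP against Control 0 passed with edgeR. There 1 had an unadjusted p under 0.05, against 8.98% of all genes.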
